A study of Homo sapiens with 9 samples.

Results

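The cells described here are the solvent controls of a compound study: human cells labelled as H441, a line grown from a lung adenocarcinoma, kept for 24 h in medium with 0.1% DMSO and no compound. They are 3 of the study's 9 RNA sequencing libraries; the other 6, from cells given the compounds BSGL or RSGL, were not used. The 3 libraries were chosen by their labels, and every gene placed on a primary chromosome or on the mitochondrial genome was kept, which gave 42658 of the 45754 genes in the table. The labels contradict each other on the cells: the cell line tag names H441, a genotype tag on the same 3 libraries names H460, another lung cancer line, and the tissue is given as lung with non-small cell lung cancer as the cell type. No deletion, transgene or selection is given in the labels, and they do not say whether the 3 libraries came from separate cultures, so the SD values printed here measure the spread between these libraries, which may be technical.

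A transcriptome is dominated by genes that every dividing cell needs, those of protein synthesis, respiration, glycolysis and the cytoskeleton. Identity is written in a much smaller set: lineage transcription factors, and the adhesion, secretion and metabolic genes that they keep active. H441 is known for surfactant proteins, which lower surface tension in the alveoli, and for NKX2-1, the transcription factor that specifies lung and thyroid epithelium. These genes defined the check of the label below. Levels are in FPKM, fragments scaled to the length of the gene and to the total of the library. They allow only an approximate comparison between genes, since listed length, overlapping genes and near-identical copies can also affect a value. A gene was counted as expressed here at a mean of at least 1 FPKM over the 3 libraries. In a gene of 2000 bases, 1 fragment was worth 0.0255 to 0.0263 FPKM, depending on the library. In bulk RNA, a gene carried at a high level by few cells and one carried at a low level by all cells cannot be told apart.

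The libraries held 17538750, 17997830 and 17665882 fragments in these genes, and 12104, 12087 and 12058 genes reached 1 FPKM. By the mean of the 3, 12051 genes (28.3%) were expressed, 504 of them reached 100 FPKM and 17076 had 0 fragments in every library. Protein-coding genes made up most of this: 10446 of 18764 (55.7%) were expressed, against 700 of 14043 lncRNA genes (5.0%) and 235 of 5444 pseudogenes (4.3%). The median protein-coding gene stood at 1.89 FPKM. The 45 genes of at least 1000 FPKM took 13.2% of the fragments, and the 4529 genes between 10 and 100 FPKM took 47.1%. The 100 most abundant genes took 19.03% ± 0.38 of the fragments (SD, n = 3), the 1000 most abundant 46.6% ± 0.64.

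**Figure D1:**
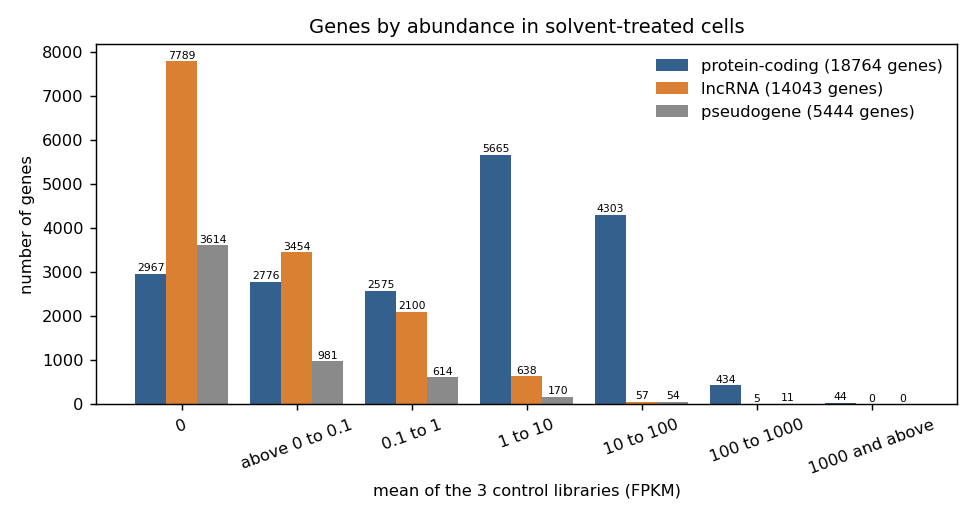
Number of genes (vertical axis) in each class of mean FPKM over the 3 control libraries (horizontal axis), for protein-coding genes, lncRNA genes and pseudogenes. Protein-coding genes peak between 1 and 10 FPKM with 5665 genes, while 7789 of the lncRNA genes lie at 0.

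The mitochondrial genome supplied 5 of the 6 most abundant protein-coding genes. Its 37 genes, which encode subunits of the respiratory chain with the rRNA and tRNA to translate them, held 5.65% ± 0.11 of the fragments, or 14.3% ± 0.24 of summed FPKM. COX2, a subunit of cytochrome c oxidase, was at 9046, 9730.1 and 9813 FPKM, the highest of all genes. COX1, the catalytic subunit of the same enzyme, was at 8553, 8786 and 8827 FPKM, and COX3 at 5412, 5500.1 and 5751 FPKM. Among the subunits of complex I the order ran from ND4 at 3534 ± 77.1 FPKM down to ND6, the only protein gene on the other strand, at 979 ± 132 FPKM. ATP6 and ATP8, whose reading frames overlap, stood at 4851 ± 211 FPKM and 648 ± 75.9 FPKM. Reads in overlapping genes cannot be assigned with certainty, so the level of ATP8 and that of ND4L, 2753, 2528 and 3611 FPKM, are uncertain. The short genes ND4L and ND3 were highest in library 3, a pattern described at the end for short genes in general.

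Cytosolic ribosomal proteins, the protein part of the ribosome, took a share like that of the mitochondrial genome, 5.94% ± 0.33 of the fragments. All 74 measured genes were expressed, 68 of them at 100 FPKM or more, with a median of 664 FPKM. RPLP1, of the stalk that binds elongation factors, was at 2152, 2180.0 and 2418 FPKM, RPL13A at 2164, 2233 and 2341 FPKM and RPS2 at 1795, 1767 and 1831 FPKM. The 3 lowest were RPL36A at 4.83, RPS10 at 7.84 and RPL17 at 18.2 FPKM, each of which shares its bases and strand with a readthrough gene listed at 0 or close to it. The 5 ribosomal genes that another protein-coding gene overlaps on the same strand had a median of 18.2 FPKM, and the other 69 one of 718 FPKM. The part of overlap in these low values was not tested. EEF1A1, the factor that brings aminoacyl-tRNA to the ribosome, followed the same high level with 1735 ± 35.4 FPKM, EEF1G reached 905 ± 36.1 FPKM and RACK1, a ribosome-bound scaffold, 921 ± 30.1 FPKM.

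Ribosomal protein mRNAs are known to begin with a C followed by an unbroken run of pyrimidines, the 5' terminal oligopyrimidine motif, through which their translation is regulated together. The starts of 7 of the most abundant members are shown because this feature is common to the group. They come from RefSeq on GRCh38.p14, run from 15 bases before to 15 bases from the annotated start, and carry the unbroken run of C and T from the start in capitals.
RPLP1: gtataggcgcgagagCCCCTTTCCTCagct
RPL13A: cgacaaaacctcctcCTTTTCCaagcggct
RPLP0: gcgcgggcgcgaggcCCTTCTCTCgccagg
RPS16: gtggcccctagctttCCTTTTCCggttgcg
RPL4: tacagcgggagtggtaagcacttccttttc
RPS6: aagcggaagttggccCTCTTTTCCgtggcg
RPL41: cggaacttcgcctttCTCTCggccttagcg
The windows lie at chr15:69452803-69452832, chr19:49487593-49487622, chr12:120201097-120201126, chr19:39435935-39435964, chr15:66504841-66504870, chr9:19380222-19380251 and chr12:56116618-56116647, in the order shown; those of RPLP1, RPL13A and RPL41 are on the plus strand and the others on the minus strand. In RPL4 the annotated start is an A and no base is in capitals. Across the 14634 protein-coding genes with a window, out of 18681, a C followed by 4 bases that are each C or T stood at the start of 672 (4.6%). Among the 59 matched ribosomal protein genes it was 39 (66.1%). By level, the share was 2.6% of genes at 0, 5.2% of those between 10 and 100 FPKM, 18.7% between 100 and 1000 and 9 of 24 (37.5%) at 1000 FPKM or more. Ribosomal genes are part of these last classes, so the shares are not independent of the group's own.

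Beside ribosomes and mitochondria, the most abundant protein-coding genes were those of iron storage, glycolysis and the cytoskeleton. FTL and FTH1, the light and heavy chains of ferritin, were at 5857, 5940.1 and 5685 FPKM and 2332, 2369 and 2288 FPKM, together 2.11% ± 0.10 of summed FPKM. ACTG1 at 2034 ± 42.5 FPKM and ACTB at 1648 ± 12.6 FPKM, the cytoplasmic actins, TMSB4X at 1959.6 ± 87.8 FPKM and TMSB10 at 1853 ± 166 FPKM, which hold actin monomers, and the tubulin TUBA1B at 1233 ± 31.5 FPKM formed the cytoskeletal group. LGALS1, a lectin of mesenchymal and many tumour cells, was at 1281 ± 47.95 FPKM, and the calcium-binding protein S100A6 at 1124, 992 and 1339 FPKM. The gene that stands out from housekeeping functions was ALDH1A1, which makes retinoic acid from retinaldehyde: it ranked 16 among all protein-coding genes with 1920.0, 1961 and 2001 FPKM.

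Of the long noncoding RNAs, those that host small nucleolar RNAs in their introns held most of the leading places. SNHG5 was at 468, 409 and 567 FPKM, GAS5 at 219.6, 229 and 213 FPKM, ZFAS1 at 109.9, 107 and 132 FPKM and SNHG1 at 114, 111 and 113 FPKM. SNHG6, SNHG8, SNHG16 and SNHG19 stood between 58.8 and 97.97 FPKM. LRRC75A-AS1, known also as a snoRNA host, was at 223 ± 23.4 FPKM, and LINC00493 at 76.2 ± 10.1 FPKM. Antisense genes are uncertain where strand was not used in counting, and no label or header states that setting.

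The lineage check covered 236 marker genes in 21 lists, of which 58 were expressed and 62 had 0 fragments in all 3 libraries. In the alveolar type 2 list, the surfactant-making cell of the lung, 2 of 13 genes were expressed, with a median of 0.022 FPKM: ETV5 at 8.68 ± 0.215 FPKM, a factor of the ERK pathway found in many cells, and ABCA3, the lipid transporter of lamellar bodies, at 4.87, 5.18 and 4.72 FPKM. SFTPB had 2, 1 and 1 fragments in the 3 libraries and SFTPC 3, 9 and 9, or 0.131, 0.385 and 0.398 FPKM. NKX2-1 had 0, 0 and 1 fragments. SFTPA2, PGC and HOPX had 0 fragments in all, which allows up to 0.0188, 0.0286 and 0.0125 FPKM by counting error (3 fragments over the 3 libraries). NAPSA, the aspartic protease that processes surfactant protein B, stood at 0.518, 0.615 and 0.662 FPKM. LPCAT1, an entry of this list placed on another contig and so left out of the count, was at 4.61, 5.34 and 3.75 FPKM. The markers for which H441 is known were thus at or near 0 in the libraries that carry its name.

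Airway lists were low as well. Of 12 club and secretory genes 3 were expressed, MUC5B, a gel-forming mucin, at 5.14 ± 0.611 FPKM, SPDEF, the goblet cell factor, at 2.73 ± 0.316 FPKM and the protease inhibitor SLPI at 1.36 ± 0.366 FPKM, while SCGB1A1, the club cell protein, was at 0.69, 1.24 and 0.582 FPKM. SCGB3A1, SCGB3A2 and WFDC2 had 0 fragments. Of 11 ciliated cell genes 2 were expressed, CCDC78 and CAPS, and FOXJ1, the master factor of motile cilia, was at 0.465 FPKM. Of 11 basal and squamous genes SOX2 at 7.92, 7.70 and 8.89 FPKM and S100A2 at 7.17 ± 1.03 FPKM were expressed, whereas TP63, the factor of basal cells, was at 0.0811 and its keratins KRT5 and KRT14 at 0.135 and 0.0947 FPKM. Of 8 alveolar type 1 genes CAV1, the caveolae coat protein that many adherent cells carry, was at 112 ± 1.98 FPKM, GPRC5A at 14.03 ± 0.35 FPKM and EMP2 at 6.78 ± 0.278 FPKM, and PDPN and HOPX had 0 fragments. Among the ion and water channels of airway epithelium, CFTR, the chloride channel mutated in cystic fibrosis, was at 0.00697 and AQP5 at 0.0092 FPKM. SCNN1A, the alpha subunit of the epithelial sodium channel, was at 2.36 ± 0.175 FPKM, and its partners SCNN1B and SCNN1G had 0 fragments.

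**Figure D2:**
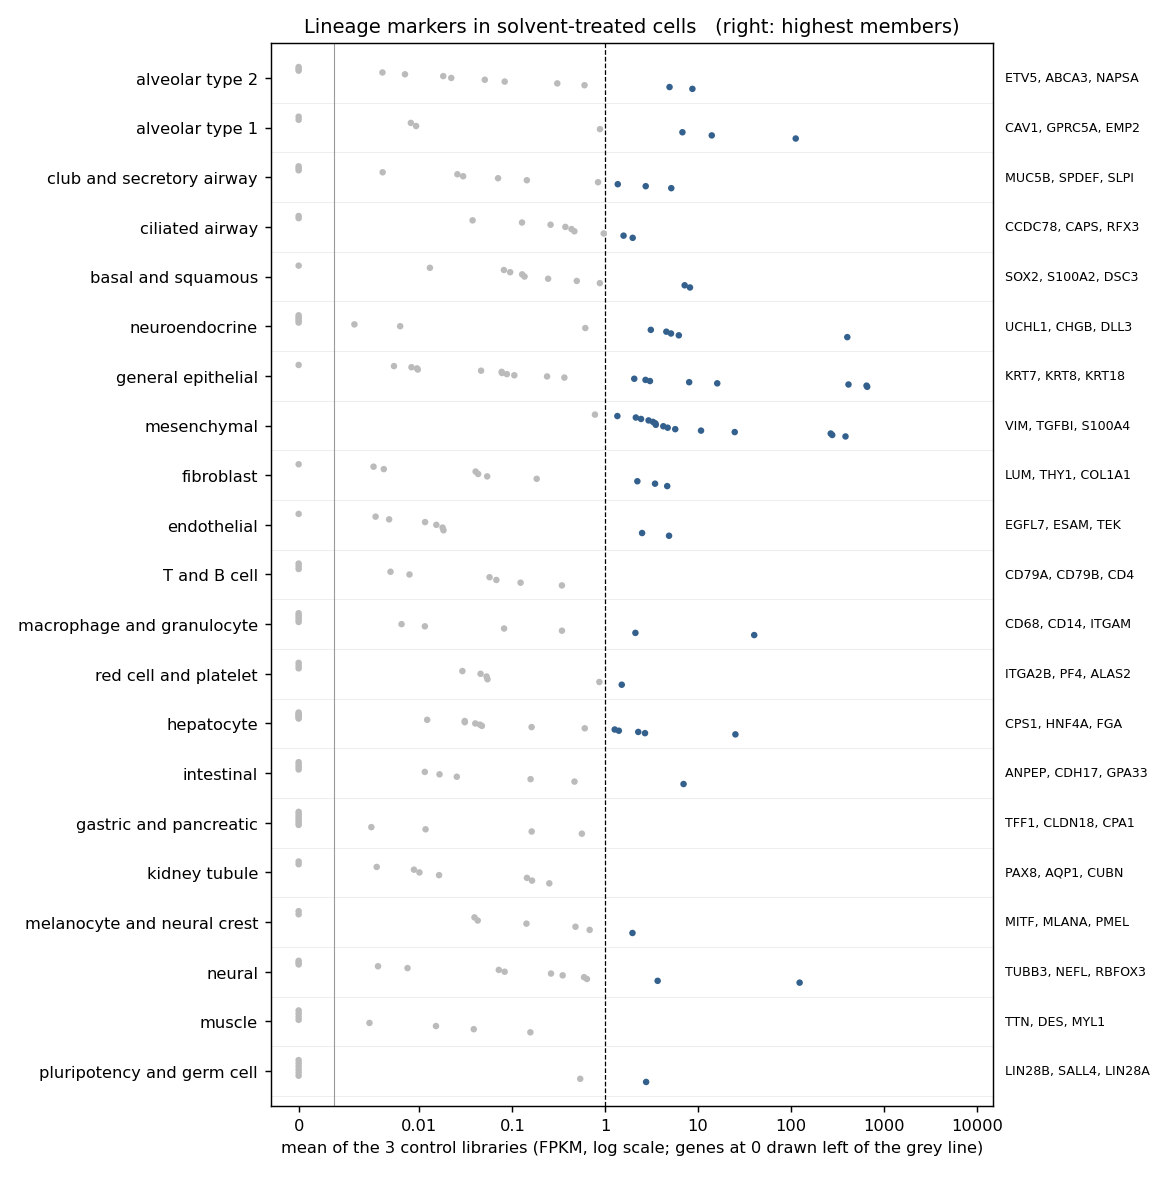
Mean FPKM of the 3 control libraries (horizontal axis, log scale, genes at 0 drawn left of the grey line) for each marker gene (point) of 21 lineage lists (vertical axis). Points in blue lie at 1 FPKM or more (dashed line); the mesenchymal list has 15 of 16 genes there, and the alveolar type 2 list 2 of 13.

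The epithelial list was expressed in part, and the mesenchymal list, described next, almost in full. Of 20 general epithelial genes 8 were expressed. The simple keratins were abundant, with KRT7 at 665, 651 and 668 FPKM, KRT8 at 652, 644 and 657 FPKM and KRT18 at 430.1, 411 and 407 FPKM. Junctional and surface genes of the same list were not: EPCAM was at 0.333, 0.267 and 0.49 FPKM, CLDN7 at 0.236 FPKM, and CDH1, E-cadherin, at 8.37, 7.85 and 7.81 FPKM. The factors that hold epithelial junctions and splicing in place were close to 0, with GRHL2 at 0.00959, ESRP1 at 0.0873, ESRP2 at 0.046 and OVOL1 at 0.00941 FPKM, and OVOL2 at 0 fragments. ELF3, an epithelial ETS factor, was an exception at 16.1 ± 0.915 FPKM.

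In the mesenchymal list 15 of 16 genes were expressed. VIM, the intermediate filament of mesenchymal cells, was at 381, 398 and 379.7 FPKM, TGFBI, a matrix protein induced by TGF-beta, at 283, 279 and 272 FPKM and S100A4 at 261, 247 and 296 FPKM. FN1, fibronectin, was at 24.8 ± 0.678 FPKM and CDH2, N-cadherin, at 10.2, 11.6 and 10.4 FPKM, above CDH1 in each of the 3 libraries. The factors of epithelial-mesenchymal transition lay lower, between 1 and 5 FPKM: TWIST1 at 4.70 ± 0.43 FPKM, SNAI2 at 4.22 ± 0.239 FPKM, SNAI1 at 3.46 ± 0.285 FPKM, TWIST2 at 3.27 ± 0.161 FPKM, ZEB1 at 2.93 ± 0.16 FPKM and ZEB2 at 1.35 ± 0.16 FPKM. SPARC, at 0.775 FPKM, was the gene of the list that was not expressed. Fibroblast genes proper were mostly near 0: of 10, LUM at 4.65 ± 0.338 FPKM, THY1 at 3.44 ± 0.267 FPKM and COL1A1 at 2.22 ± 0.0715 FPKM were expressed, and PDGFRA at 0.0428, DCN at 0.0402 and COL1A2 at 0.0032 FPKM were not.

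Markers of blood, vessel and other organs were absent or isolated. All 9 T and B cell genes were under 1 FPKM, with CD3E, CD3D and CD2 at 0 fragments, and their summed level was 0.345 to 0.850 FPKM in a library. Of 11 macrophage and granulocyte genes CD68, a lysosomal protein that many cells make, was at 40.2 ± 0.398 FPKM and CD14 at 2.11 ± 0.104 FPKM, while CSF1R stood at 0.0814 FPKM and MRC1, C1QA, C1QB and MPO had 0 fragments. Of 9 endothelial genes EGFL7 at 4.87 ± 0.0923 FPKM and ESAM at 2.49 ± 0.572 FPKM were expressed, and VWF at 0.0177, PECAM1 at 0.00471 and CDH5 at 0 were not. Of 9 red cell and platelet genes ITGA2B, at 1.51 ± 0.178 FPKM, was expressed. PF4 was at 0.865 FPKM, and HBB and HBA1 had 0 fragments. None of the 9 kidney tubule, 8 muscle or 11 gastric and pancreatic genes reached 1 FPKM. In the last list TFF1 was highest at 0.56 FPKM, and 7 genes had 0 fragments, PTF1A, INS and GCG among them.

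Some markers of liver, gut and nerve were expressed, in lists of which most genes were under 1 FPKM. Of 19 hepatocyte genes 5 were expressed. CPS1, the entry enzyme of the urea cycle, was at 26.02, 25.1 and 24.6 FPKM, HNF4A, a liver and gut nuclear receptor, at 2.83, 2.84 and 2.37 FPKM, and FGA, FGB and FGG, the fibrinogen chains, at 2.27, 1.40 and 0.602 FPKM, of which FGG was under the threshold. The other expressed gene of the list was AMBP, a plasma protein precursor, at 1.26 ± 0.157 FPKM. ALB, albumin, had 0, 2 and 2 fragments, and APOB, TTR, TF and AHSG 0. Of 10 intestinal genes ANPEP, an aminopeptidase, was at 6.97 ± 0.279 FPKM, while CDX2, the intestinal factor, was at 0.0114 FPKM. Of 13 neuroendocrine genes 5 were expressed. UCHL1, a ubiquitin hydrolase, was at 401, 402 and 408 FPKM and made up 95.4% of the list's summed level. CHGB, a granule protein, was at 6.20 ± 0.394 FPKM, the Notch ligand DLL3 at 5.11 ± 0.413 FPKM, SYT1 at 4.55 ± 0.281 FPKM and SYP at 3.10 ± 0.0746 FPKM, whereas the neuroendocrine factor NEUROD1 had 0 fragments and INSM1 stood at 0.0062 FPKM. SCG2, another granule protein, was at 0.626, 0.693 and 0.511 FPKM. TUBB3, a tubulin of neurons that many tumour lines carry, was at 123, 126 and 122 FPKM, and NEFL, a neurofilament protein, at 3.67 ± 0.332 FPKM. LIN28B, which blocks let-7 processing, was at 2.58, 2.89 and 2.80 FPKM, and LIN28A, NANOG, DDX4 and DAZL had 0 fragments. MITF, the melanocyte factor, was at 1.96 ± 0.138 FPKM, with SOX10 at 0.0424 FPKM and TYR at 0.

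A list of 20 transcription factors was drawn up around the foregut, from which lung, liver and stomach arise. Of these 13 were expressed, and NKX2-1 was among the 7 under 1 FPKM. The list also holds factors not limited to the foregut, ID1, KLF5 and the C/EBP factors, so its count is not read as a foregut programme. Among all transcription factors 825 of 1489 (55.4%) were expressed. FOXA2, a pioneer factor of endoderm, was at 17.9, 20.2 and 17.7 FPKM, while its relatives FOXA1 and FOXA3 were at 0.145 and 0.2 FPKM. HNF4G was at 1.49 ± 0.103 FPKM, SOX9 at 2.32 ± 0.122 FPKM and GATA6 at 1.09, 1.31 and 1.21 FPKM. NKX2-5, the cardiac relative of NKX2-1, was at 4.69, 5.68 and 4.74 FPKM. KLF5 at 13.9 ± 0.435 FPKM and the C/EBP factors CEBPB at 39.1 ± 2.96 FPKM, CEBPD at 19.3 ± 1.17 FPKM and CEBPA at 5.72 ± 0.683 FPKM were expressed. ID1, which blocks bHLH factors, led the list at 196 ± 12.5 FPKM.

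HOX genes, which record position along the body axis, were expressed in part of each cluster, and the counts depended on the threshold: at a minimum of 2 FPKM, HOXA kept 1 gene, HOXB 7, HOXC 2 and HOXD 0. At 1 FPKM, 8 of 10 HOXB genes were expressed, with HOXB7 at 15.3, 16.8 and 16.6 FPKM and HOXB6 at 8.58, 8.64 and 8.16 FPKM well above the others, and HOXB1, at the 3' end, at 0 fragments. In HOXA 6 of 11 were, HOXA3 at 1.98, 1.92 and 1.97 FPKM among them, and HOXA9 at 0.059 FPKM lay between HOXA7 at 0.874 and HOXA10 at 1.68 FPKM. In HOXC 5 of 9 were expressed, HOXC9 highest at 4.28, 4.63 and 4.60 FPKM, with HOXC11 and HOXC12 at 1 and 0 fragments over the 3 libraries and HOXC13 beyond them at 1.37, 1.47 and 1.60 FPKM. In HOXD only HOXD8 was, at 2.37, 1.78 and 1.80 FPKM, and HOXD3, HOXD4 and HOXD13 had 0 fragments. The shares in HOXA, 54.5%, and HOXC, 55.6%, were near the 55.7% of all protein-coding genes. The posterior gene HOXB13, known from prostate and hindgut, was at 2.63, 3.09 and 3.43 FPKM.

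**Figure D3:**
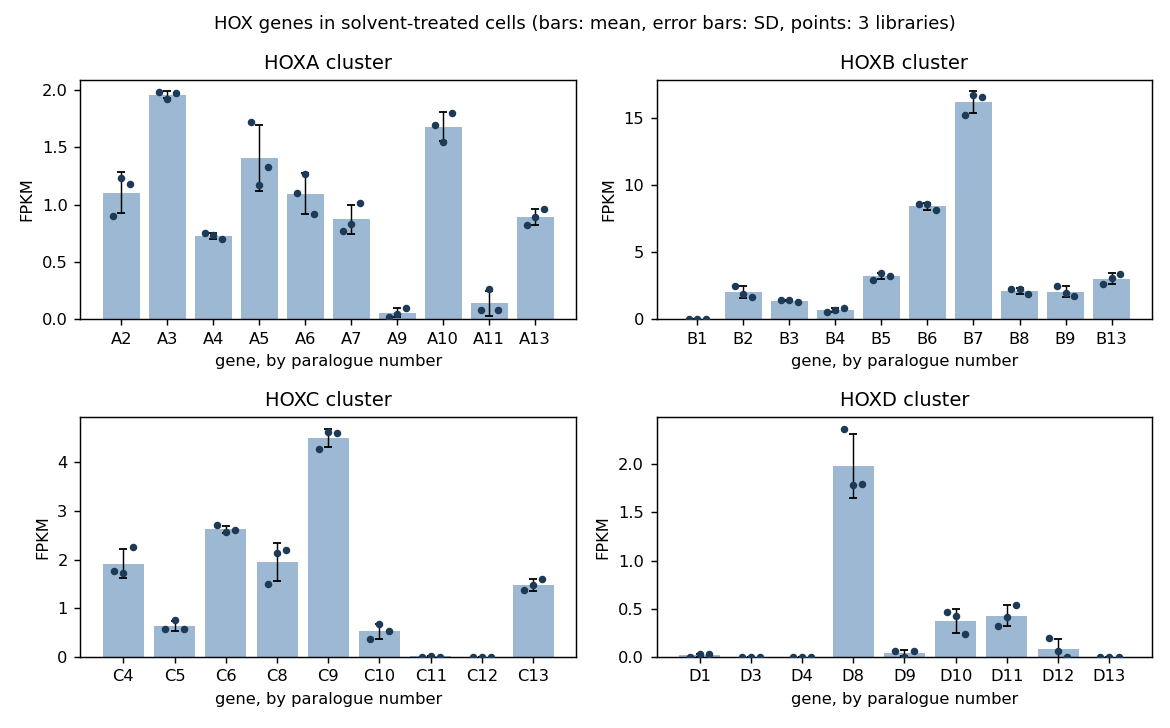
Level in FPKM (vertical axis) of HOX genes of the 4 clusters, not all of them shown, ordered by paralogue number (horizontal axis); bars are means, error bars SD and points the 3 control libraries. HOXB7 and HOXB6 stand highest, and of the HOXD genes HOXD8 alone passes 1 FPKM.

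Promoter sequences of an abundant gene and of absent lung markers are shown to set the levels beside the base composition upstream. Each holds the 250 bases before the RefSeq start on GRCh38.p14, with CG dinucleotides, the sites of DNA methylation in mammals, in capitals.
ALDH1A1: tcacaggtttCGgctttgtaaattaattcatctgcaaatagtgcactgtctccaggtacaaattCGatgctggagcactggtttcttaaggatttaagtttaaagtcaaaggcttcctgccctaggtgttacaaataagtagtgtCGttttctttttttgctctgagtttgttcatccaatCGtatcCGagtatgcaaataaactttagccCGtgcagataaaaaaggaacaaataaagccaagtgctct
SFTPB: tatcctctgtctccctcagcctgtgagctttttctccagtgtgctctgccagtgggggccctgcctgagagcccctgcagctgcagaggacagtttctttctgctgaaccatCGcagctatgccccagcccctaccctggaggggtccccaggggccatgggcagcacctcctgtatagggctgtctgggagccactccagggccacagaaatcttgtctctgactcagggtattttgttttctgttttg
NKX2-1: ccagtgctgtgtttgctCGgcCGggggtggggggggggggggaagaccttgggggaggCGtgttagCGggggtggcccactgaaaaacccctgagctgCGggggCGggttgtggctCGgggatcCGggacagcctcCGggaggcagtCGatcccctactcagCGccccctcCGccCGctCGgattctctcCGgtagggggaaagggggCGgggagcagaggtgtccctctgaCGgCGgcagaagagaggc
They lie at chr9:72953054-72953303 for ALDH1A1, chr2:85668742-85668991 for SFTPB and chr14:36520233-36520482 for NKX2-1, all on the minus strand. ALDH1A1, at 1961 FPKM, has 6 CG in this window and SFTPB, at 0.018 FPKM, has 1. NKX2-1 has 18 CG and a total of 1 fragment over the 3 libraries. Over the 14634 windows, the median number of CG upstream was 4 for genes at 0 FPKM, 8 above 0 to 0.1, 14 between 0.1 and 1, and 20.5 to 22 in the 4 classes from 1 FPKM upward. At least 10 CG were found upstream of 27.7% of genes at 0 and of 90.5% between 10 and 100 FPKM. ALDH1A1 thus had fewer CG than the median of its class of level, and NKX2-1 more than the median of its own. Among matched lineage markers the median was 12 for the 37 that were expressed and 5 for the 104 that were not. DNA methylation was not measured here.

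Keratins other than the simple ones were mostly under 1 FPKM, with the hair keratins KRT81 and KRT86 among the exceptions. Of 26 type II keratins 5 were expressed and of 18 type I keratins 3. KRT81, a structural protein of the hair shaft, was at 616, 607 and 647 FPKM, close to KRT7 and KRT8. KRT86, which spans KRT81 on the opposite strand in this annotation, was at 5.18 ± 1.24 FPKM, and KRT83 at 0.387 FPKM. These genes are near-identical in part, so the split between them is uncertain. KRT80 at 33.2 ± 0.269 FPKM and KRT10 at 22.4 ± 4.58 FPKM followed, and KRT19, a partner of KRT8 in most simple epithelia, was low at 2.16, 2.18 and 1.82 FPKM. KRT6A, KRT16 and KRT17, keratins of activated and squamous epithelium, were at 0.128, 0.371 and 0.153 FPKM.

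Most claudins and cadherins were under 1 FPKM, and so were 14 of the 26 integrins, the receptors for matrix, although a few of these were abundant. Of 21 claudins, the sealing proteins of tight junctions, 5 were expressed: CLDN1 at 12.5 ± 0.576 FPKM, CLDN12 at 10.9 ± 0.515 FPKM, CLDN15 at 5.48 ± 0.459 FPKM, the pore-forming CLDN2 at 3.72 ± 0.166 FPKM and CLDN4 at 2.71 ± 0.261 FPKM. CLDN18, whose lung isoform marks alveoli, was at 0.161 FPKM. Of 20 cadherins 5 were expressed, CDH2 and CDH1 leading, with CDH24 at 4.70 ± 0.763 FPKM, CDH11 at 3.50 ± 0.221 FPKM and CDH6 at 1.36 ± 0.108 FPKM. Of 26 integrins 12 were expressed (46.2%, against 55.7% of all protein-coding genes), and the median of the 26 was 0.864 FPKM. ITGB1, the common beta subunit, was at 375, 395 and 377 FPKM and held 57.4% of the summed level. Its partners ITGA3, a laminin receptor, at 118, 118 and 113 FPKM, ITGA5, for fibronectin, at 23.1 ± 1.77 FPKM and ITGAV at 25.2 ± 0.587 FPKM came next to ITGB4 at 42.6 ± 1.91 FPKM and ITGB5 at 34.2 ± 1.98 FPKM. ITGB6, the epithelial activator of TGF-beta, was at 0.439 FPKM, and the leukocyte subunits ITGAL, ITGAM and ITGAX were between 0.132 and 0.342 FPKM.

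Of 18 S100 proteins 9 were expressed, S100A6, S100A11 at 459 ± 15.1 FPKM, S100A4 and S100A10 at 257 ± 6.43 FPKM leading, and S100A7, S100A8 and S100A12, proteins of inflamed skin and neutrophils, had 0 fragments. All 12 annexins, which bind membranes in the presence of calcium, were expressed. ANXA1 was at 751, 771 and 819.5 FPKM and ANXA2, the partner of S100A10, at 509, 523 and 551 FPKM. ANXA10, known from gastric epithelium, was at 76.8, 77.2 and 80.1 FPKM. Of 9 mucins MUC5B, MUC13 at 4.28 ± 0.589 FPKM and MUC1 at 3.03 ± 0.692 FPKM were expressed and MUC16 was at 0.00275 FPKM.

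**Figure D4:**
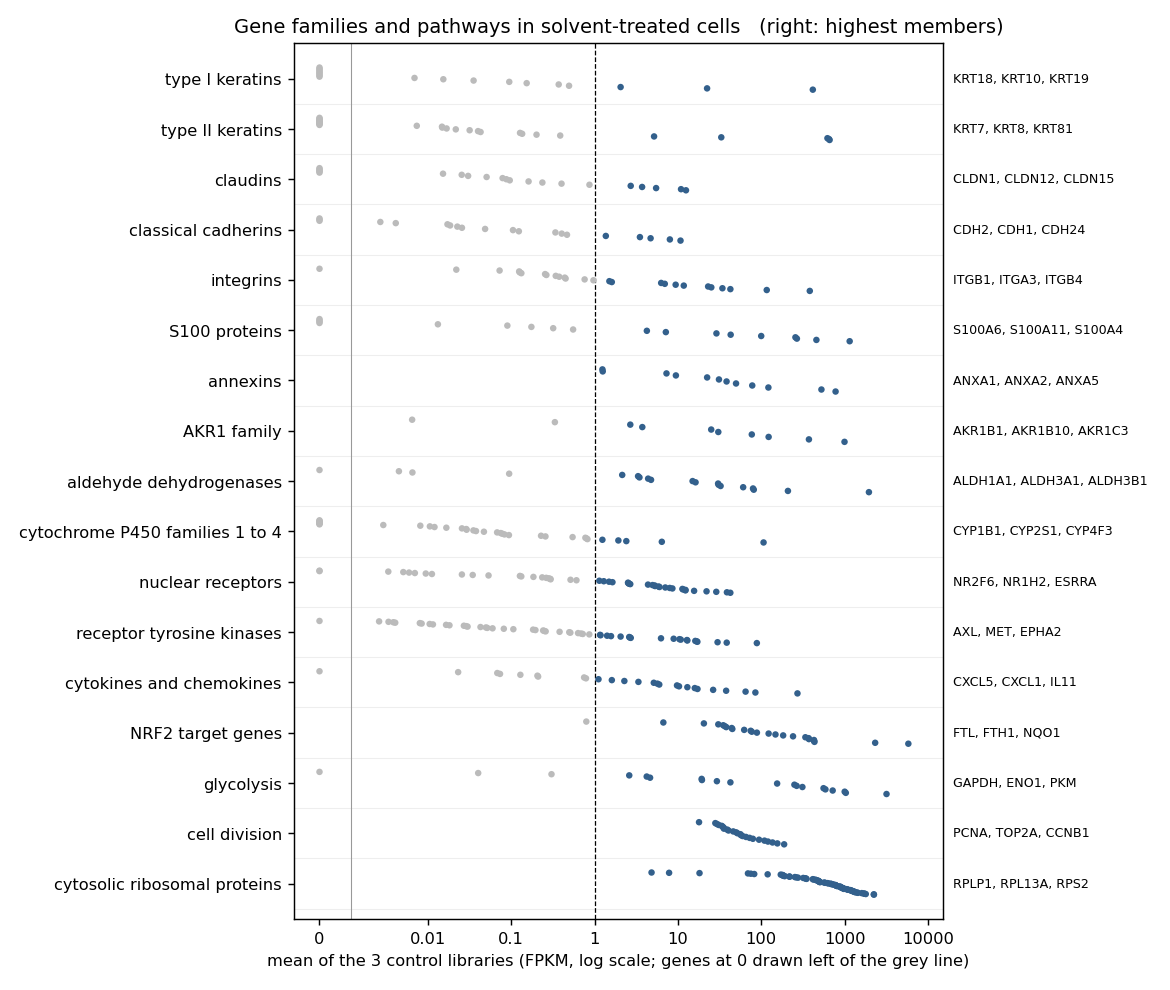
Mean FPKM of the 3 control libraries (horizontal axis, log scale, genes at 0 drawn left of the grey line) for each gene (point) of 17 families and pathways (vertical axis). All 25 cell division genes lie at 10 FPKM or more, while 29 of 34 cytochrome P450 genes lie under the dashed line at 1 FPKM.

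Genes that detoxify and reduce were among the most abundant of the non-housekeeping groups. NRF2 is the factor of the antioxidant response, held back by KEAP1. Of 25 of its targets 24 were expressed (96.0%, against 55.7% of all protein-coding genes), 23 at 10 FPKM or more, with a median of 88.7 FPKM. Beside the ferritins, NQO1, a quinone reductase, was at 429, 424 and 454 FPKM, TXNRD1, thioredoxin reductase, at 420.2, 435 and 435 FPKM and SRXN1, which repairs oxidised peroxiredoxins, at 241 ± 5.34 FPKM. PGD at 339 ± 1.63 FPKM, an NADPH-making enzyme of the pentose phosphate pathway, and TKT at 371 ± 4.62 FPKM and TALDO1 at 183 ± 3.78 FPKM, of its non-oxidative branch, were of the same order. GCLC and GCLM, the subunits of glutamate-cysteine ligase, stood at 74.7 ± 2.60 FPKM and 35.02 ± 1.25 FPKM, and SLC7A11, the cystine importer, at 44.2 ± 1.59 FPKM. GPX2, an epithelial glutathione peroxidase, was the target under 1 FPKM, at 1.04, 0.646 and 0.702 FPKM. Among the 19 targets with a promoter window, 6 (31.6%) held TGACNNNGC, the core of the antioxidant response element, on either strand in the 250 bases upstream, where 1707 of all 14634 (11.7%) did.

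Aldo-keto reductases and aldehyde dehydrogenases, which reduce and oxidise aldehydes, were each led by 1 gene. AKR1B1, aldose reductase, was at 1000.3, 959 and 1037 FPKM and held 61.1% of its family's summed level, followed by AKR1B10 at 376, 374 and 370.4 FPKM and AKR1C3 at 123, 129 and 116 FPKM. AKR1C1 at 30.5 ± 1.27 FPKM and AKR1C2 at 77.05 ± 1.56 FPKM are near-identical to AKR1C3, and AKR1B15 at 3.74 ± 0.523 FPKM to AKR1B10, so the split within each set is uncertain. AKR1D1, the bile acid reductase of liver, was at 0.00647 FPKM. ALDH1A1 held 77.4% of its family's summed level. ALDH3A1, an enzyme of cornea and airway, was at 212, 204 and 211 FPKM, ALDH3B1 at 81.4 ± 1.42 FPKM and mitochondrial ALDH2 at 60.7 ± 1.47 FPKM. ALDH1A3 was at 3.46 ± 0.0528 FPKM and ALDH1A2, the retinoic acid enzyme of the embryo, had 0 fragments. By contrast, of 34 cytochromes P450 of families 1 to 4, 5 were expressed. CYP1B1, a target of the aryl hydrocarbon receptor, was at 105, 111 and 104 FPKM, 86.9% of the summed level, whereas CYP1A1, a target of the same receptor, was at 0.31, 0.228 and 0.235 FPKM. CYP2S1 was at 6.41 ± 0.416 FPKM, and the lung enzymes CYP2F1 and CYP4B1 were at 0.0256 and 0.00811 FPKM.

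Glycolysis genes were expressed in 17 of 20 cases (85.0%, against 55.7% of all protein-coding genes), with a median of 98.9 FPKM. GAPDH was at 3097, 3154 and 3314 FPKM, ENO1 at 1014, 1016 and 1075 FPKM and PKM, pyruvate kinase, at 995, 1006 and 1009 FPKM. LDHA at 720.0 ± 8.13 FPKM and LDHB at 589 ± 28.8 FPKM, the lactate dehydrogenase subunits, were both abundant, with LDHA the higher in all 3 libraries. HK1, the hexokinase of most tissues, was at 42.7 ± 0.392 FPKM, while HK2, the form of muscle and many tumours, was at 0.261, 0.32 and 0.331 FPKM. ALDOA, the aldolase of muscle and many other tissues, was at 250.1 ± 4.58 FPKM.

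All 25 genes of cell division were above 10 FPKM, from CCNE1, cyclin E, at 17.9 ± 0.841 FPKM to PCNA, the sliding clamp of replication, at 180.0, 193 and 192 FPKM. TOP2A, topoisomerase, was at 155, 155 and 159 FPKM, CCNB1, the mitotic cyclin, at 131, 137 and 141 FPKM and MKI67 at 40.5 ± 1.38 FPKM. Their median was 51.9 FPKM, against 1.89 for all protein-coding genes.

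Cyclin-dependent kinase inhibitors ranged from high to absent. CDKN1A, which encodes p21, was at 85.8, 82.2 and 92.98 FPKM, CDKN2C at 19.7 ± 0.735 FPKM and CDKN1B at 7.70 ± 0.571 FPKM. CDKN2A and CDKN2B, neighbours on chromosome 9 that encode p16, ARF and p15, had 0 fragments in all 3 libraries, which allows up to 0.0117 and 0.013 FPKM. CDKN2A lies at chr9:21967752-21995043 and CDKN2B at chr9:22002903-22009313. On one side MTAP, an enzyme of methionine salvage at chr9:21802636-21865971, was at 2.06, 2.59 and 1.85 FPKM, and on the other side the next protein-coding gene, DMRTA1, was at 1.20, 0.841 and 1.32 FPKM. KLHL9, which lies among the alpha interferon genes on the MTAP side, was at 12.6, 12.7 and 12.5 FPKM. MDM2, a ubiquitin ligase, was at 14.4 ± 0.596 FPKM and BAX, which promotes apoptosis, at 92.1 ± 9.10 FPKM. DNA copy number was not measured here.

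In a list of RAS pathway and lung cancer genes 27 of 34 were expressed (79.4%, against 55.7% of all protein-coding genes). CCND1, cyclin D1, was at 139.6, 137 and 138 FPKM, CDK4 at 99.6 ± 6.37 FPKM and MYC at 36.8, 36.3 and 35.2 FPKM, with MYCN at 0.114 and MYCL at 0.143 FPKM. NRAS, a small GTPase of growth signalling, was at 19.6 ± 0.498 FPKM. KEAP1 at 34.1 ± 1.48 FPKM, STK11 at 14.7 ± 0.485 FPKM and NFE2L2, the gene of NRF2, at 19.6 ± 0.549 FPKM were expressed, and so were the chromatin remodelling ATPases SMARCA4 at 3.21 ± 0.152 FPKM and SMARCA2 at 8.73 ± 0.431 FPKM. The fusion partners ALK, RET and ROS1 were at 0.0165, 0.0516 and 0.259 FPKM. TERT, telomerase, was at 1.08, 1.09 and 0.916 FPKM. Levels say nothing of mutations in these genes.

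Of 52 receptor tyrosine kinases 20 were expressed (38.5%, against 55.7% of all protein-coding genes) and 10 reached 10 FPKM. AXL, the receptor for GAS6, led at 88.3, 87.1 and 90.4 FPKM and held 30.5% of the summed level, followed by MET at 38.2, 38.8 and 38.6 FPKM, EPHA2 at 31.3, 29.9 and 28.6 FPKM, EGFR at 16.9, 17.3 and 17.2 FPKM and IGF1R at 16.96, 16.6 and 16.9 FPKM. ERBB2 was at 12.8 ± 0.486 FPKM, while its partner ERBB3 was at 0.634 and ERBB4 at 0.008 FPKM. FGFR1 at 12.97 ± 0.311 FPKM and FGFR4 at 10.4 ± 0.886 FPKM were higher than FGFR3 at 2.65 ± 0.243 FPKM, and FGFR2, the receptor of branching lung epithelium, was at 0.0496 FPKM. NTRK3, a neurotrophin receptor, was at 6.31, 6.42 and 6.08 FPKM.

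Nuclear receptors were expressed in 26 of 47 cases (55.3%), near the 55.7% of all protein-coding genes, and 9 were at 10 FPKM or more. NR2F6 was at 42.6 ± 1.43 FPKM, the oxysterol receptor NR1H2 at 38.8 ± 0.355 FPKM and ESRRA at 28.9 ± 0.689 FPKM. NR0B1, a repressor of adrenal and gonadal development, was at 21.7, 22.6 and 21.9 FPKM. NR3C1, the glucocorticoid receptor, was at 15.6 ± 0.355 FPKM, PPARG at 12.3, 12.6 and 12.1 FPKM and VDR, for vitamin D, at 2.58 ± 0.112 FPKM. The receptors for oestrogen and progesterone, ESR1 and PGR, were at 0.00594 and 0.00697 FPKM.

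Of 32 growth factors and hormones 22 were expressed (68.8%, against 55.7% of all protein-coding genes). DKK1, a secreted Wnt inhibitor, was at 106, 105 and 106 FPKM, TGFB1 at 58.7 ± 3.45 FPKM, and EREG and AREG, ligands of EGFR, at 53.6, 57.4 and 54.8 FPKM and 38.7, 39.01 and 40.4 FPKM. EDN1, endothelin, was at 30.9 ± 0.726 FPKM, FGF2 at 18.4 ± 0.344 FPKM and VEGFA at 15.6 ± 0.788 FPKM. IGF1 and IGF2 were at 0.0014 and 0.00273 FPKM. Among 26 cytokines and chemokines 17 were expressed (65.4%, against the same 55.7%). CXCL5, an attractant of neutrophils, stood at 265, 272 and 279 FPKM, 46.9% of the summed level. CXCL1 at 85.8, 82.1 and 87.3 FPKM, IL11 at 66.3, 65.5 and 62.97 FPKM, IL18 at 37.9 ± 1.59 FPKM and LIF at 26.5 ± 1.18 FPKM followed, and CXCL8 was at 15.9 ± 0.691 FPKM. IL1A and IL1B were at 0.206 and 0.21 FPKM. The interferons IFNL1 at 6.25, 6.55 and 4.24 FPKM and IFNB1 at 1.51, 1.42 and 1.90 FPKM were expressed at low levels.

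Complement and coagulation genes, many of them known as liver products, were expressed in 18 of 24 cases. PLAU, a plasminogen activator, was at 46.8, 45.8 and 44.7 FPKM and the membrane inhibitors of complement CD46, CD59 and CD55 at 26.6, 24.6 and 21.01 FPKM. C3, the central complement protein, was at 23.7, 22.1 and 21.7 FPKM, and F2, prothrombin, at 0.823 FPKM.

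Cancer-testis antigens, genes normally kept to the germ line, stayed under 1 FPKM in 25 of 27 cases, 14 of them at 0 fragments. MAGEA6 was at 40.8 ± 2.99 FPKM and MAGEA3 at 4.95, 5.11 and 4.99 FPKM; both are near-identical copies, so the split between them is uncertain. MAGEA4, CTAG2 and PAGE5 had 0 fragments.

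Some well-known genes are missing from these lists because the table places them on alternate or patch contigs. This held for 70 of the 945 distinct list genes, 18 of the 22 antigen presentation genes among them. Their listed lengths and levels varied. RPS9, a ribosomal protein that every cell needs, stood at 0.448 FPKM over a listed length of 9971 bases, and MIF at 0 over 1122 bases. B2M was at 34.7 FPKM over 3851 bases, GPI at 106 FPKM over 6074 bases and RPS25 at 119 ± 71.7 FPKM over 984 bases. Of 1282 protein-coding genes on such contigs 201 reached 1 FPKM, against 10446 of the 18764 that were kept. Protein-coding genes on such contigs had a median listed length of 5958.5 bases and those on primary chromosomes 3615. Low values of genes on such contigs are not read here as low expression, and the part of length in them was not tested.

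The 3 libraries were close for most genes, and departed from each other by gene length. Protein-coding genes between 10 and 100 FPKM had a median coefficient of variation of 3.53%, where counting alone gives 2.65%. From 100 to 1000 FPKM it was 3.39%, against 1.25% from counting. The observed figures are medians of sample values from 3 libraries and the counting figures are expected values. They are not the same statistic, so the gap between them is approximate. Among protein-coding genes of at least 10 FPKM, library 3 was the highest in 63 of 67 genes (94.0%) shorter than 600 bases and in 462 of 1629 (28.4%) of 4000 bases or more. In the shortest class the median gene stood at 95.6, 89.9 and 114.8% of its own mean in libraries 1, 2 and 3. In the longest it stood at 99.8, 100.7 and 99.4%.

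**Figure D5:**
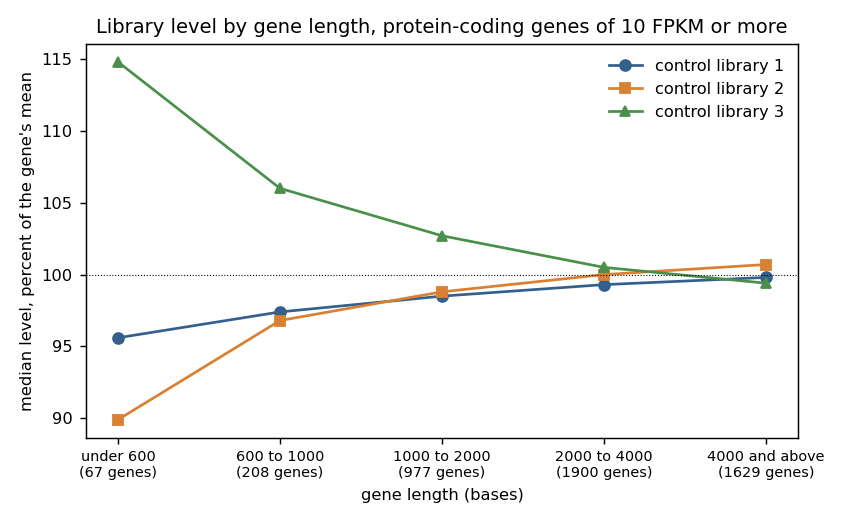
Median level of each control library as a percent of the gene's mean over the 3 libraries (vertical axis), for protein-coding genes of at least 10 FPKM in 5 classes of gene length (horizontal axis). Library 3 stands at 114.8% for genes under 600 bases and falls to 99.4% for genes of 4000 bases or more.

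Of protein-coding genes with a mean of at least 5 FPKM, the 5 with the widest spread were listed as follows. U2AF1L5, a copy of the splicing factor U2AF1, had 41.2, 7.18 and 4.21 FPKM, and EIF3C, which has the copy EIF3CL, 8.21, 9.95 and 23.2 FPKM. ATP5I, a subunit of ATP synthase, had 41.01, 35.6 and 89.6 FPKM, COMMD6 11.4 ± 5.00 FPKM and RPS29 70.2, 53.3 and 124 FPKM. Of 4303 protein-coding genes between 10 and 100 FPKM, 8 differed by a factor of at least 2 between the highest and the lowest library.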

How the data were processed

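RNA of 3 control libraries was sequenced, and the authors deposited 1 table of FPKM per gene for all 9 libraries; 6 columns of treated libraries were not used. HISAT2 (versions 2.0 and 2.0.5), featureCounts 1.5.0-p3 and DESeq2 1.16.1 are named, with no role, in the submitters' processing notes. Genome build and strand setting: not given in the sources used here. In the deposited FPKM, each value times gene length was a whole multiple of 1 step per library, for 100% of values under 300 fragments within 0.01, so fragments were recovered; this step was tested on simulated data. The recovered fragments sum to 92.3 to 93.9% of each scaling total. Counts give counting error only. Means, SDs, shares and counts past 1 FPKM were computed with Python 3.11.15, pandas 2.3.3 and numpy 2.4.6; no groups were compared and no test was run. Names that had become dates were restored from gene IDs in 28 rows, and 3096 genes on other contigs were left out.

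A rule set which genes to name: the 30 most abundant protein-coding genes, the 10 most abundant lncRNA genes, of each list the first 3 and the 4 highest, and the 5 most variable genes of at least 5 FPKM. The rule was not followed in full: in several lists, neural and red cell and platelet among them, some of these genes are not named. Further list members, and the promoter, overlap, length and chromosome 9 summaries, were chosen after their values were seen. All 51 lists were chosen with earlier results of these data known. Alternatives are given in the closing section. Some genes are not reported here.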

Additional observations from a re-analysis of the deposited data

How the results depend on the processing

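The number of expressed genes, 12051, ranged from 10199 at a minimum of 2 FPKM to 14471 where 10 fragments in each library were asked for instead. Leaving out 1 library at a time gave 12059 to 12065 expressed genes, 502 to 515 genes of at least 100 FPKM, 58 to 59 expressed lineage markers, 18.8 to 19.2% of fragments in the 100 most abundant genes and 5.61 to 5.71% in the mitochondrial genome. On the TPM scale, where 1 FPKM is about 2.5 to 2.6 TPM, 1539 genes instead of 504 reached 100, by construction of the scale, and 77 lineage markers instead of 58 reached 1. The 100 most abundant genes held 19.03% of fragments, 37.64% of summed FPKM, in which short genes weigh more, and 15.52% of fragments without the mitochondrial genome. The mitochondrial share was 5.65% of fragments and 14.28% of summed FPKM. Counts by list moved with the threshold: at 2 FPKM, HOXA fell from 6 genes to 1, HOXC from 5 to 2, HOXD from 1 to 0, antigen presentation from 3 to 0, ciliated airway from 2 to 0 and hepatocyte from 5 to 3. P450 genes numbered 5, against 9 at 0.5 FPKM and 3 at 2 FPKM. Without library 1 the red cell and platelet list had 2 expressed genes instead of 1. No paired analysis was possible because the results come from no test and from 1 group. A level under 0.1 FPKM rests on few fragments, so no order is read among such genes.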

Other observations

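Among all transcription factors in the authors' family annotation, 825 of 1489 were expressed, and families differed in that share. Of 182 homeobox genes 65 were expressed (35.7%), of 46 forkhead genes 17 (37.0%), of 16 T-box genes 4 and of 15 POU genes 1. Above the 55.4% of all factors were HMG with 29 of 45 genes (64.4%), ETS with 18 of 28 (64.3%) and GATA zinc fingers with 7 of 11 (63.6%). Of 44 bZIP genes 33 were expressed, of 22 MYB genes 20 (90.9%) and of 10 E2F genes, which drive the entry into S phase, 9. Among the most abundant factors were YBX1, a cold shock protein that binds mRNA, at 199 ± 5.35 FPKM (SD, n = 3), ID1 at 196 ± 12.5 FPKM, the chromatin protein HMGA1 at 169.5 ± 5.15 FPKM, SSRP1, a histone chaperone subunit, at 119.9 ± 2.62 FPKM, HMGB3 at 116 ± 5.82 FPKM and ATF4, of the integrated stress response, at 111 ± 5.71 FPKM. HIF1A, the hypoxia factor, stood at 99.5 ± 3.27 FPKM and FOSL2, an AP-1 subunit, at 72.6 ± 1.82 FPKM.

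By chromosome, the share of protein-coding genes that were expressed ran from 39.5% of 238 on chromosome 21 and 42.3% of 823 on chromosome X to 63.5% of 1029 on chromosome 17. The median level of the expressed genes lay between 5.63 FPKM on chromosome 13 and 12.9 FPKM on chromosome 17. These are descriptions of gene content and level, and copy number was not measured.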
